A study of Mus musculus with 31 samples.

Results

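The genes described here encode the proteins of the cytosolic ribosome. They are the rows of the count table whose mouse symbol is Rpl or Rps followed by a protein number, by a, or by p0 to p2 for the stalk proteins, with at most 1 trailing a, x or l. The rule found 83 genes of 55492 rows, 51 for the large subunit (Rpl) and 32 for the small subunit (Rps), on 19 chromosomes, with 14 of them on chromosome 7. It leaves out rows named -ps, the Rps6k kinases, and ribosomal genes whose symbols have another form (among them Rps3a1, Rack1, Fau, Rpl36al, Rpl22l1, Rpl7l1, Rps27rt). Of the 83, 80 passed the filter on low counts and were tested (48 Rpl and 32 Rps); Rpl10l, Rpl3l and Rpl39l, paralogues known from testis or muscle, did not. In the annotation 80 of the 83 are protein-coding, and Rpl6l, Rpl32l and Rps4l are pseudogenes.

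Ribosomal proteins are assembled in the nucleolus with ribosomal RNA into a small subunit, which reads the mRNA, and a large subunit, which joins the amino acids. Most of their mRNAs begin with a run of pyrimidines, the TOP motif, through which mTORC1 signalling and the protein LARP1 set how much of them is translated. Long-term haematopoietic stem cells keep protein synthesis low, and loss of 1 copy of several of these genes, RPS19 and RPS24 among them, causes Diamond-Blackfan anaemia in people, in which red cell production fails.

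RNA was sequenced from LT-HSCs, the long-term stem cells of the blood (gate Lin-Sca1+cKit+CD48-CD150+), of mice with a myeloproliferative neoplasm carrying the JAK2-V617F transgene. VF cells have the genotype SclCre;FF1;GFP and VFDM cells SclCre;FF1;Dnmt3Δ/Δ;GFP (Dnmt3a-KO in the series text); Scl-driven Cre acts in blood-forming cells. Donor marrow of either genotype was put into wild-type recipients together with a 10-fold excess of wild-type marrow, and 8 weeks of treatment began 4 weeks after transplantation. Mice received vehicle, pegylated interferon alpha (IFN, 25 ug/kg under the skin each week), 5-azacytidine (AZA, 2 mg/kg into the peritoneum each day), which is a nucleoside that traps DNA methyltransferases, or both drugs (COMBO). There were 4 libraries in each of the 8 groups except VFDM COMBO, which had 3 (numbers 2, 3 and 4), 31 in all. The series design gives 4 mice a group, but the sample labels name no mouse, so the p-values speak only to how far these libraries differ. The labelled sort gate names neither GFP nor a donor marker, so the labels do not tell how many wild-type competitor cells a library holds.

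Total counts ran from 17782394 to 73910928 a library. Dnmt3a lay at 104 to 297 CPM (read counts relative to the TMM-scaled library size) in VF libraries and at 23.0 to 162 CPM in VFDM libraries, and the ranges overlapped. VFDM IFN library 3 was at 162 CPM and the other VFDM libraries at 119.6 or less; VF COMBO library 3 was at 104 and the other VF libraries at 139.7 or more. VF vehicle libraries 1, 2 and 4 stood apart: genes annotated as small nuclear, small nucleolar, micro, ribosomal or other small RNA took 22.3%, 24.9% and 37.5% of their counts, against 8.49% in VF vehicle library 3 and 5.02% to 10.5% in the other 27. Their TMM scaling factors were 0.927, 0.753 and 0.719, against 0.992 in library 3 and 0.978 to 1.07 in the rest. All comparisons with VF vehicle rest on these libraries, and their counts are given with and without them. In VFDM COMBO, 7 of 11 LT-HSC markers were lower and 12 of 13 tested erythroid markers higher than in VFDM vehicle. In bulk RNA fewer cells of a type and less RNA per cell cannot be told apart.

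The stretch around the annotated transcription start is shown for 10 members, 8 of them called in at least 1 comparison below, so that the pyrimidine tract can be seen beside the values. Each line holds the 20 bases before the RefSeq start and the 10 from it on, read 5′ to 3′ on the gene's strand in GRCm38.p6; capitals mark every run of a C followed by at least 4 pyrimidines, and the letters come from RefSeq.
Rps2 (chr17:24720043-24720072, + strand): tgcgtaggcagtcgagatctcgcgCTTCTT
Rps9 (chr7:3704021-3704050, + strand): gtccaaccgccttgtCTCTCTTTgtctcgg
Rps19 (chr7:24884572-24884601, + strand): agcactccgaaatctcgcgagactcgacgc
Rplp2 (chr7:141447631-141447660, + strand): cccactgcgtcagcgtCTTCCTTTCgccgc
Rps15 (chr10:80292411-80292440, + strand): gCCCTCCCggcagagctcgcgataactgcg
Rps24 (chr14:24490658-24490687, + strand): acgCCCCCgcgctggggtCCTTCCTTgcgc
Rpl13a (chr7:45128736-45128765, - strand): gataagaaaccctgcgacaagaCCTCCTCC
Rps27l (chr9:66946066-66946095, + strand): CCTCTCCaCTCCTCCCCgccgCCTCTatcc
Rps6 (chr4:86857358-86857387, - strand): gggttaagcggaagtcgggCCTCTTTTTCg
Rpl27a (chr7:109519175-109519204, + strand): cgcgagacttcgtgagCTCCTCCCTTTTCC
A marked run spans the start in Rplp2, Rps9, Rps24, Rps6 and Rpl27a. In Rps27l, Rpl13a and Rps2 a run begins within a few bases after the start. In Rps15 the run lies only upstream of the start, and Rps19 has none in these 30 bases. RefSeq gives 3 starts for Rps19, 2 for Rps24 and Rps27l, and 1 for the others shown; the start printed is 1 of them.

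RefSeq promoters, from 250 bases before to 50 after the start, were found for 61 of the 83 members. A pyrimidine tract of at least 5 bases began at the first transcribed base in 14 of 61 members (23.0%), against 3.01% of all genes in the table, and lay within 25 bases either side of the start in 51 (83.6%), against 56.8%. The Ets-family core CCGGAAG, searched on both strands, was in 25 (41.0% against 9.93%). The GC box GGGCGG was in 36 (59.0% against 38.2%), TATAAA in 7 (11.5% against 15.7%) and the E-box CACGTG in 6 (9.84% against 8.09%). The cyclic AMP element TGACGTCA was in 5 (8.20% against 2.03%), and the core of the interferon-stimulated response element, GAAA, any 2 bases and GAAA, in 7 (11.5% against 3.99%). Among protein-coding genes alone, the GC box was in 51.02%, nearer to the members than among all genes. The Ets core was in 13.35% of them, the E-box in 9.176% and TATAAA in 14.33%. The cyclic AMP element was in 2.639% and the interferon element core in 4.025%. The tract was at the first base in 2.712% and near the start in 57.45%. The patterns were searched separately and may overlap, and a match describes the letters and is not a binding site. The members called lower in VF IFN held a tract near the start in 9 of 10 cases with a promoter in the table, and the tested members not called in 39 of 48. At the first base itself, the tract was in 1 of these 10 and in 13 of these 48. Under AZA, and likewise under COMBO, a tract lay near the start in 12 of 13 called and 36 of 45 other members, and at the first base in 2 of 13 and 12 of 45.

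Among the tested members, the mean level over all libraries ran from 3.68 CPM per kilobase of exon (Rps4l) to 1154 (Rplp1, an acidic stalk protein), with a median of 61.0. Below Rplp1 came Rpl8, which lies near the peptidyl transferase centre, at 609 CPM per kilobase, Rpl4, which lines the exit tunnel, at 578, and Rpl32 at 504. The length used is that of all annotated exons of a gene together. For some members it far exceeds that of a single transcript (Rps9, 2522 against 914 bases), so the order rests on this choice of length. At the other end the untested paralogues Rpl3l (0.141 CPM per kilobase), Rpl39l (0.0901) and Rpl10l (1 read in all libraries together) lay below Rpl3 (98.2), Rpl39 (42.7) and Rpl10 (36.2), the copies used in most tissues. Rps27l, a paralogue of Rps27 known as a p53 target, lay above Rps27, at 20.5 against 8.44 CPM per kilobase. The intronless pseudogene Rpl6l likewise lay above Rpl6, at 258 against 96.5 CPM per kilobase. Without division by exon length the order was reversed, at 225 CPM for Rpl6l and 303 CPM for Rpl6. Their exon lengths were 871 and 3140 bases. Per kilobase, Rpl32l (66.0) lay below Rpl32 and Rps4l (3.68) below the X-linked Rps4x (159).

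These levels depend on how reads shared with other genes were counted, which is not given in the sources used here. Of all 50-base stretches of a member's transcript, a median of 43.2% also occurs in a transcript of another annotated gene; the share ran from 0% to 98.6% in Rps27, and was 50% or more in 32 members. The 300 rows named as ribosomal protein pseudogenes held 0.758% to 1.32% of the counts of a library, and the 83 members 1.22% to 2.07%. Across the 80 tested members the level per kilobase and the shared percentage had a Spearman rho of -0.14 and a Pearson r of -0.15, with gene length and annotation in common. Rps27, Rpl6l, Rpl3 (85.6% shared), Rps2 (71.3%), Rpl29 (66.2%, with 82 other genes) and Rpl13a (57.4%) are thus uncertain as single genes, while Rps3 (2.96%) and Rpl8 (6.49%) share little.

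**Figure D1:**
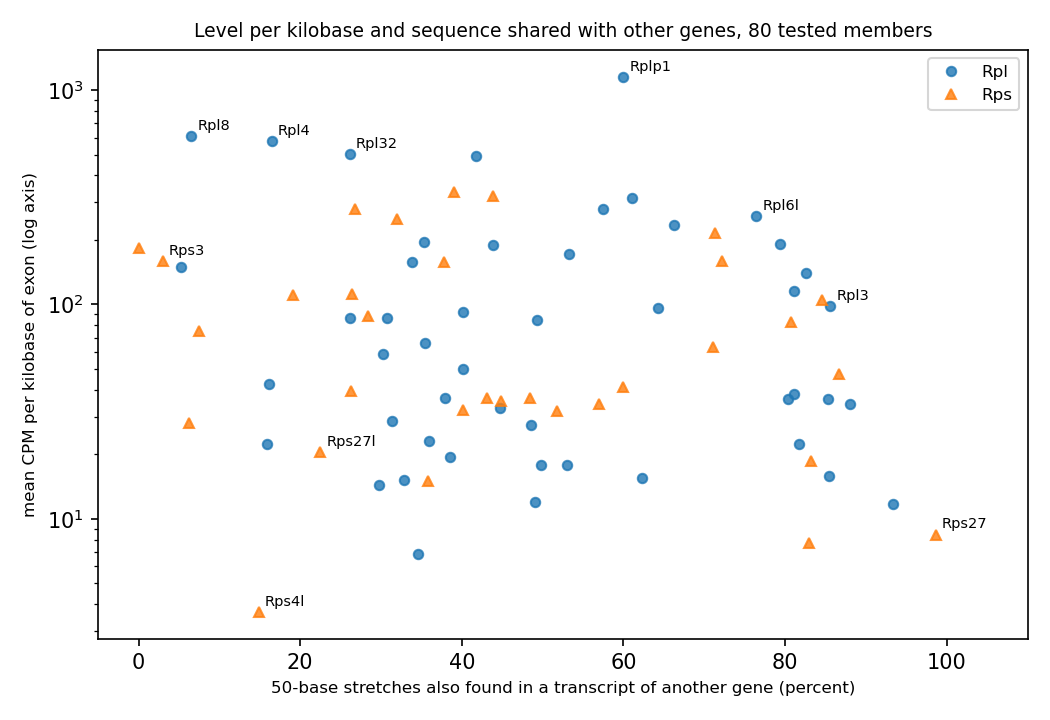
Mean level (CPM per kilobase of exon, log axis) of the 80 tested members against the percentage of their 50-base stretches also found in a transcript of another gene. Circles are Rpl and triangles Rps members; Rplp1 is highest at 1154, Rps4l lowest at 3.68, and Rps27 lies furthest right at 98.6%.

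The summed level of the 83 members was 18872, 27558, 17181 and 24412 CPM in VF vehicle libraries 1 to 4. It was 11954 to 17758 CPM in VF IFN, 13300 to 18616 in VF AZA and 14493 to 19545 in VF COMBO. The VFDM groups lay closer together, at 15846 to 17068 CPM for vehicle, 15888 to 18232 for IFN, 15103 to 16482 for AZA and 15703 to 19202 for COMBO. VF vehicle libraries 1 and 3 thus lay within the range of the other 27 libraries, and libraries 2 and 4 above it. As a share of raw counts, with no scaling, the members took 1.75%, 2.07%, 1.70% and 1.75% in the 4 VF vehicle libraries, and 1.22% to 1.99% in the other 27, so library 2 alone was outside. As a share of protein-coding counts they took 2.55%, 3.55%, 2.35% and 3.16%, against 1.65% to 2.59% in the other 27.

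**Figure D2:**
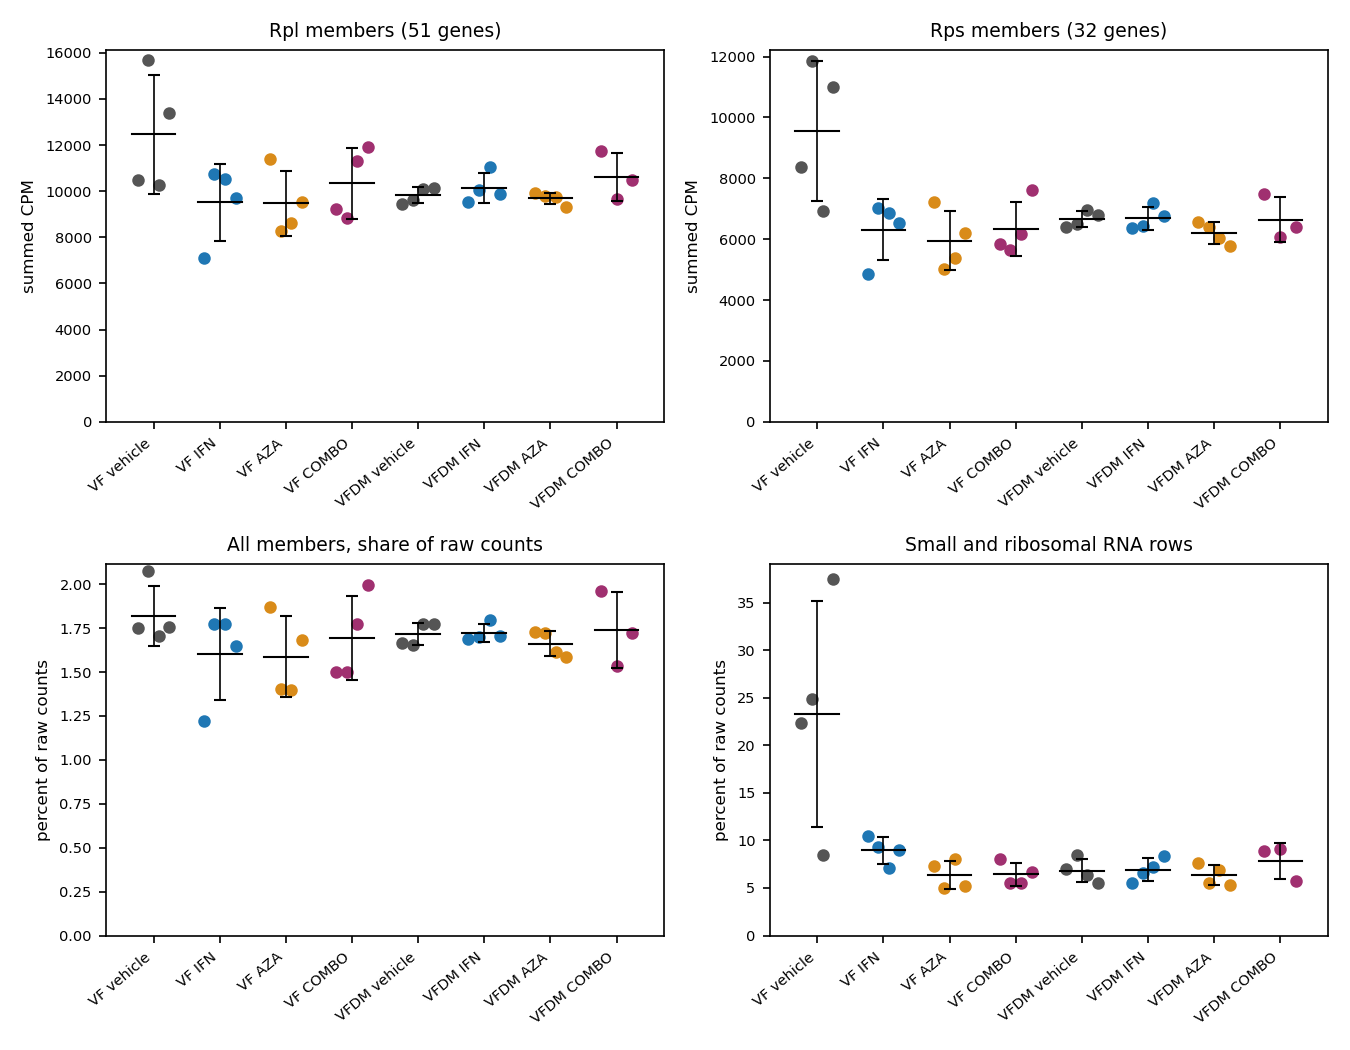
Summed CPM of the 51 Rpl and 32 Rps members, their share of raw counts, and the share of small and ribosomal RNA rows, in 8 groups. Points are libraries in replicate order, horizontal lines the group mean and whiskers the SD; VF vehicle libraries 2 and 4 are high in both upper panels, and libraries 1, 2 and 4 lie at 22.3% to 37.5% in the last.

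VF vehicle libraries 1, 2 and 4 differed from the rest unevenly between the subunits and between members. The ratio of Rpl to Rps counts was 1.25, 1.32 and 1.22 in VF vehicle libraries 1, 2 and 4, 1.49 in library 3, and 1.45 to 1.83 in the other 27. VF vehicle library 2 exceeded all 27 other libraries for 63 of the 80 tested members, library 4 for 33, library 1 for 21 and library 3 for 2. Libraries 1 and 4 were at the same time below all 27 for 5 members each. The same counts over all tested rows are not given, so these cannot be read as particular to the members. Rpl15, picked as an example after its values were seen, was at 73.0 and 62.3 CPM in libraries 1 and 4 and at 96.7 CPM or more in the other 29, while Rps19 was at 340 and 425 CPM there and at 194 CPM or less in the 27 libraries outside VF vehicle. On the low side, 57 of the 80 members had their lowest value in VF IFN library 1, VF AZA library 2 or VF AZA library 3. These libraries were picked after the values were seen, and the share over all rows is not given. VF AZA libraries 2 and 3 had 18993 and 17942 detected rows, among the 8 libraries with fewer than 20000.

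**Figure D3:**
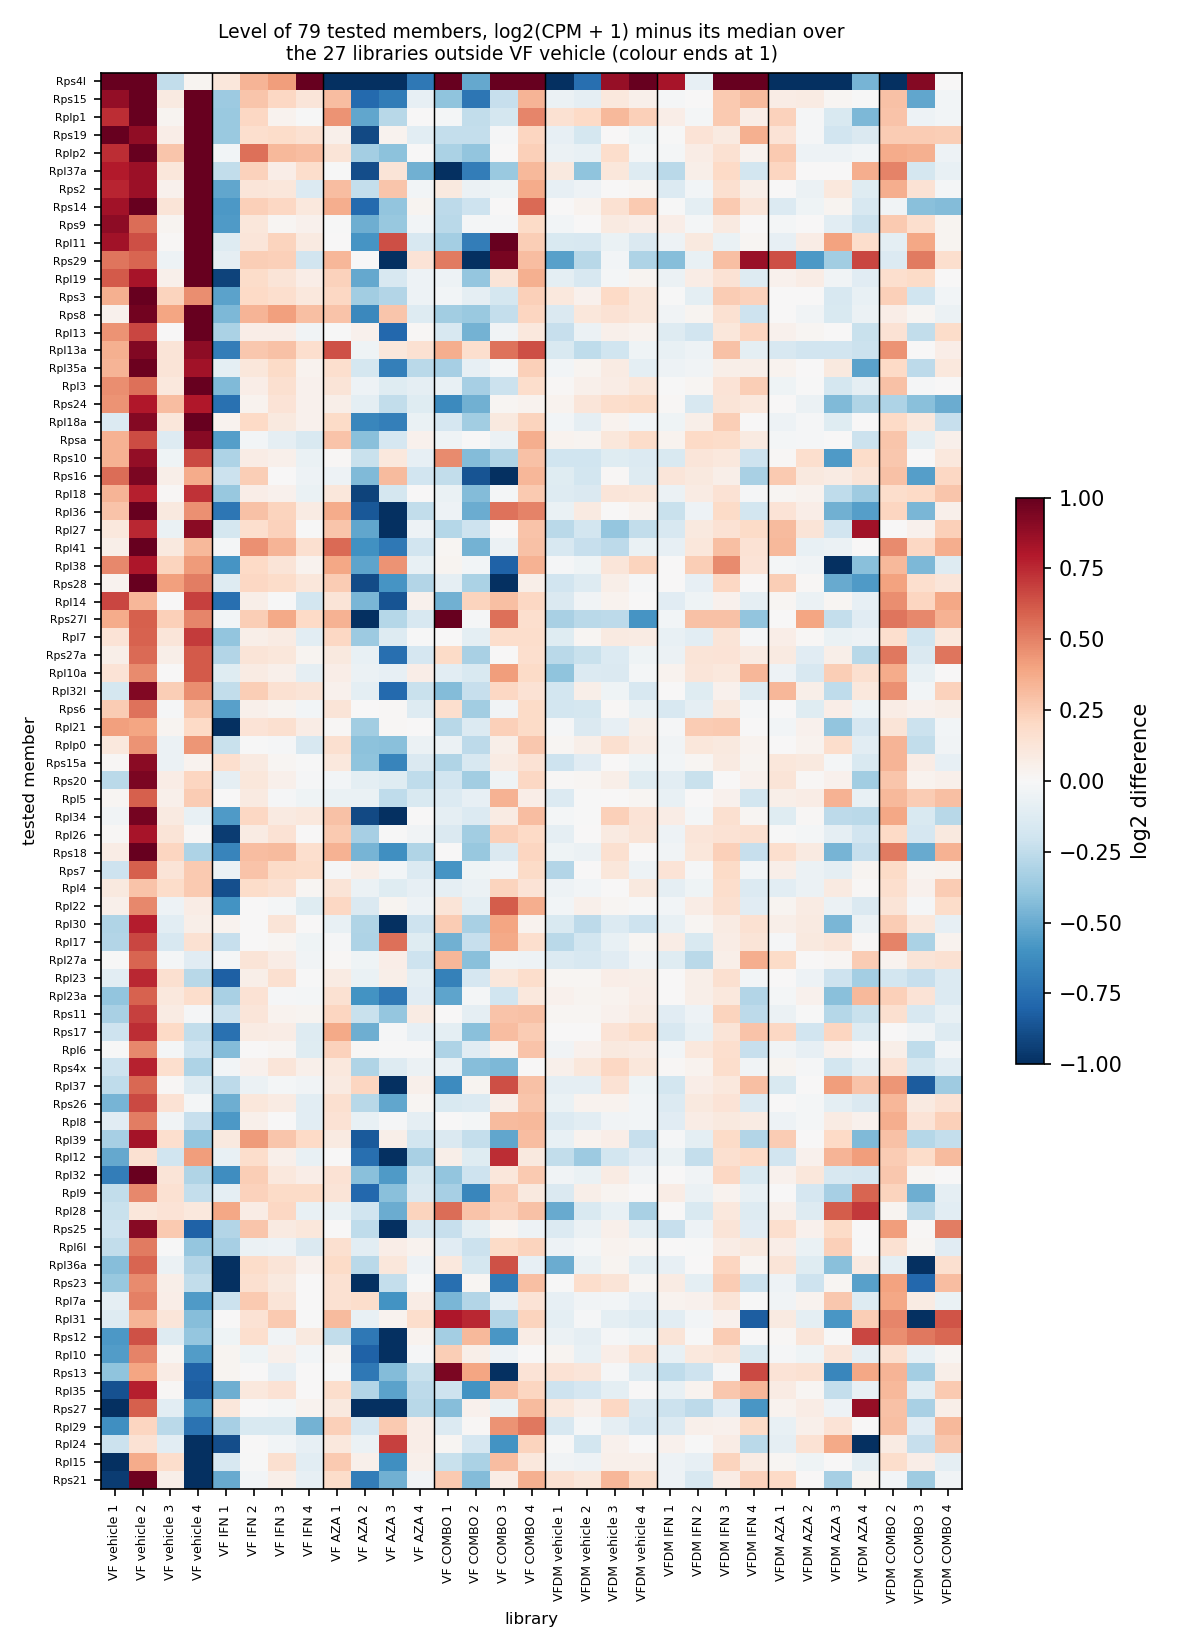
Level of 79 of the 80 tested members (rows) in each of the 31 libraries (columns), as log2(CPM + 1) minus the member's median over the 27 libraries outside VF vehicle. Red is higher and blue lower; rows are ordered by the mean of VF vehicle libraries 1, 2 and 4, library 2 is red for most rows, and library 3 is close to white.

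In VF cells, 14 to 19 of the 80 members were lower under a treatment than under vehicle, and the called members came from both subunits. Under IFN 14 of 80 fell and 0 rose (edgeR quasi-likelihood test, Benjamini-Hochberg adjusted p under 0.05 over 22172 rows), where 2.43% of all tested rows were called, 1.16% lower and 1.27% higher. Under AZA 18 fell and 0 rose, against 1.2% of all rows called, 0.902% lower and 0.293% higher, and under COMBO 19 fell and 1 rose, against 8.29% called, 4.13% lower and 4.16% higher. The median log2 fold change over the 80 members was -0.32, -0.45 and -0.28, against -0.02, -0.07 and -0.11 over all rows. All 3 comparisons share the 4 VF vehicle libraries, so these counts are not independent of each other. Of the 80 members, 4 lay below all vehicle libraries in every IFN library (6.02% of all rows did), 9 under AZA (4.38%) and 2 under COMBO (8.79%). The members' share was thus above that of all rows under AZA and below it under IFN and COMBO.

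**Figure D4:**
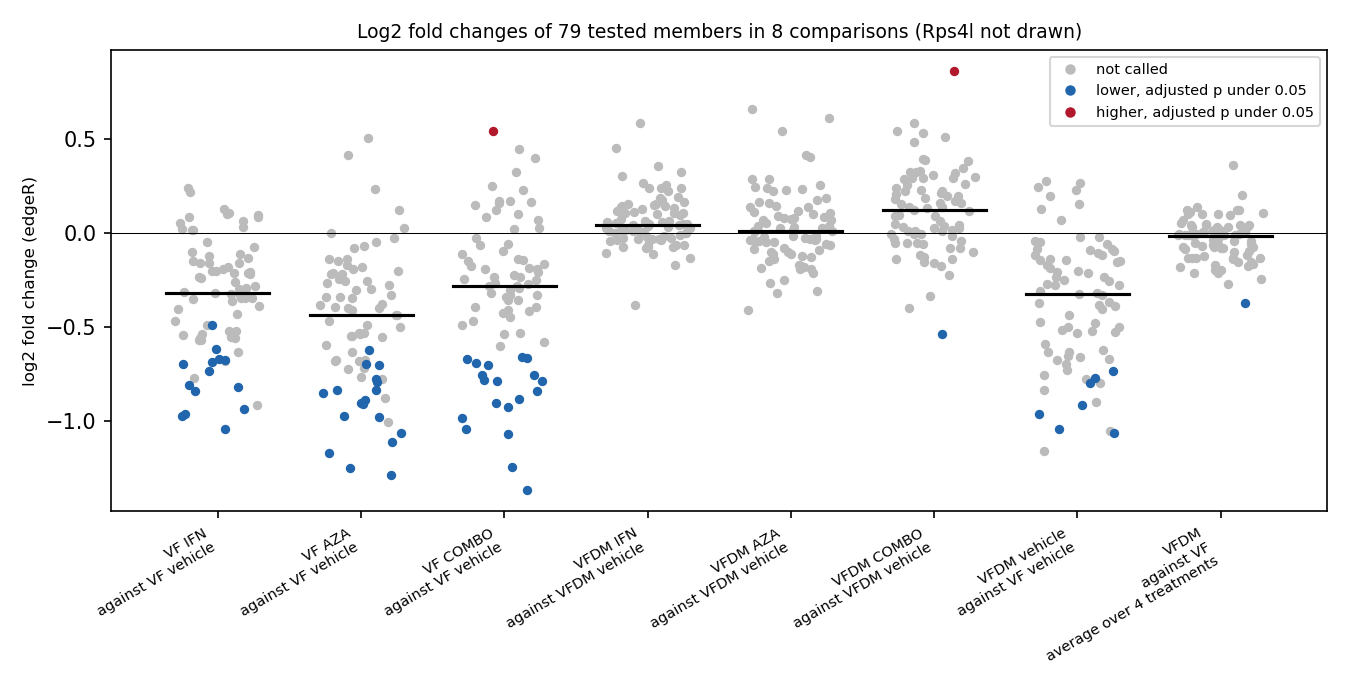
Log2 fold change of 79 tested members in 8 comparisons (Rps4l, whose level is near 0 in several libraries, is not drawn). Blue and red points passed an adjusted p of 0.05, grey points did not, and black bars mark the median of the points drawn; blue points are found in the comparisons with VF vehicle, and 1 each in VFDM COMBO and in the genotype average.

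Rps2, which sits at the mRNA entry side of the small subunit, was at 589, 628, 357 and 1000 CPM in VF vehicle libraries 1 to 4. It was at 242, 378, 375 and 315 CPM under IFN, 431, 293, 420 and 341 under AZA, and 372, 333, 338 and 449 under COMBO. Library 3 of the vehicle group lay inside the treated ranges, and the other 3 above all treated libraries. Its log2 fold change was -0.79 ± 0.18 (SE) under AZA (adjusted p = 0.0224) and -0.79 ± 0.18 under COMBO (adjusted p = 0.00644). Rps9, an early-assembling protein of the same subunit, had 1211, 962, 663 and 1605 CPM under vehicle and 439, 704, 659 and 672 CPM under IFN. It fell by 0.84 on the log2 scale under IFN (SE 0.17, edgeR adjusted p = 0.00221), although vehicle library 3 lay within the IFN values.

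Rps19 was at 340, 280, 158 and 425 CPM under VF vehicle. Under AZA it was at 157, 80.3, 155 and 140 CPM, all below vehicle, and the log2 fold change was -1.17 ± 0.20 (adjusted p = 9.17e-04). Rps24, also a Diamond-Blackfan gene, was at 938, 1199, 853 and 1202 CPM under vehicle, and all 12 treated VF libraries lay below that, at 410 to 758 CPM. Its log2 fold changes were -0.70 ± 0.16 under IFN (adjusted p = 0.00849), -0.70 ± 0.16 under AZA (adjusted p = 0.0165) and -0.84 ± 0.16 under COMBO (adjusted p = 8.40e-04). Rps24 differed from Rps2, Rps9 and Rps19 in that vehicle library 3 was also above every treated library. Rps15, which sits near the tRNA path, was at 347, 403, 201 and 606 CPM under vehicle and at 233, 110, 115 and 177 CPM under AZA, with overlapping groups. It fell under AZA by 1.29 on the log2 scale (SE 0.25, edgeR adjusted p = 0.0043). By subunit, 8 of 32 Rps and 6 of 48 Rpl members fell under IFN, 9 and 9 under AZA, and 11 and 8 under COMBO.

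Of the stalk proteins, which recruit elongation factors, Rplp2 was at 258, 324, 188 and 446 CPM under vehicle. It was at 169, 122, 116 and 155 CPM under AZA and 124, 117, 154 and 182 CPM under COMBO, below all 4 vehicle libraries in both. The log2 fold change was -1.07 ± 0.18 under COMBO (adjusted p = 2.92e-04) and -0.67 ± 0.18 under IFN (adjusted p = 0.0363), where the groups overlapped. Rplp1 fell by 1.05 under IFN, by 1.07 under AZA and by 0.99 under COMBO, from 827, 1171, 504 and 1540 CPM under vehicle. Rplp0, the stalk base, did not pass the test in any of them; its log2 fold changes were -0.35, -0.41 and -0.23, with adjusted p from 0.129 to 0.288. The large subunit core protein Rpl3, with log2 fold changes of -0.62, -0.63 and -0.69 under IFN, AZA and COMBO (SE 0.15 in each), fell from 404, 429, 314 and 618 CPM under vehicle. Rpl29 was the member that rose: in VF COMBO it was at 241, 268, 363 and 382 CPM against 173, 309, 220 and 158 CPM under vehicle (0.55 ± 0.16, adjusted p = 0.0305), with overlapping groups.

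These calls depended on which vehicle libraries were used. The share of all rows called is not given for the fits in this paragraph. With VF vehicle library 3 as the only vehicle library, 0 members were called under IFN, AZA or COMBO, and the medians over the members were -0.07, -0.21 and -0.02. That fit has 1 vehicle library, assumed to vary like the other groups, and 0 calls there do not show that the levels were equal. Without library 3 instead, 23, 31 and 24 members were called, of which 23, 31 and 23 were lower. Without VF vehicle library 4 the counts were 4, 6 and 11, and without VF IFN library 1 the IFN count was 4. When each comparison was fitted on its 2 groups alone, 0 members were called in all 3. The part of the small RNA share in these results was not tested. Marker lists of other cell types gave 1 of 13 erythroid and 2 of 10 megakaryocyte markers higher under VF IFN, 0 of either under AZA, and 4 erythroid, 2 megakaryocyte and 3 of 8 T and NK cell markers higher under COMBO; their part was not tested.

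The members called in the VF comparisons differed from the others in base composition and level, given here as descriptions. Median GC of the transcript was 54.9% in the 14 called under IFN and 51.6% in the 66 not called, 54.9% and 50.8% under AZA, and 54.9% and 50.8% under COMBO. Across the 80 members log2 fold change and GC had a Spearman rho of -0.38, -0.42 and -0.30 in the 3 comparisons; all share the vehicle libraries. In VFDM IFN, AZA and COMBO, where another vehicle group is used, the same rho was 0.28, -0.08 and 0.12. Called members also had a higher median level, 166 against 40.3 CPM per kilobase under IFN, 105 against 45.1 under AZA and 105 against 42.0 under COMBO. A gene with fewer reads is less likely to pass the test at a given fold change, and the part of this in the difference was not tested. The median share of sequence found in other genes was 43.5% in the called and 44.3% in the others under IFN, 38.8% and 46.6% under AZA, and 41.6% and 44.3% under COMBO.

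Other genes of the translation machinery were counted in the same VF comparisons. Of 78 mitochondrial ribosomal protein genes 0 were called under IFN or AZA, and 1 rose and 1 fell under COMBO. Of 8 cytosolic ribosomal genes outside the symbol rule, Rack1, a scaffold on the small subunit, fell under AZA by 0.53 (SE 0.14, edgeR adjusted p = 0.0418) and Fau fell under COMBO by 0.70 (SE 0.22, adjusted p = 0.0432); 0 were called under IFN. Of 20 elongation factors and other TOP mRNAs, 3 fell under IFN, among them Eef2, the translocase of elongation (-0.34 ± 0.09, adjusted p = 0.0456), 0 were called under AZA, and 2 rose and 2 fell under COMBO. Of 40 ribosome biogenesis factors 0 were called under IFN and 1 fell under AZA, while 6 rose and 1 fell under COMBO; Wdr12, which acts in large subunit maturation, had the smallest p (0.89 ± 0.17, adjusted p = 8.78e-04). Ribosome rescue and quality control factors rose in 5 of 10 cases under COMBO, with Ascc3, which splits collided ribosomes, at 0.80 ± 0.14 (adjusted p = 4.35e-04), and in 1 of 10 under IFN. Of 40 nuclear oxidative phosphorylation genes 1 fell under IFN, 1 under AZA and 4 under COMBO; Cox4i1 was the one under IFN (-1.11 ± 0.25, adjusted p = 0.00869). For comparison within the same libraries, 22 of 24 type I interferon-stimulated genes rose under IFN, 22 under COMBO and 2 under AZA.

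In VFDM cells few or no members passed the test under any treatment. Under IFN 0 of 80 were called by edgeR (0.965% of all rows were), with 1 member at an unadjusted p under 0.05, and the median log2 fold change was 0.04. Under AZA 0 were called (0.925% of all rows), with 4 at an unadjusted p under 0.05 and a median of 0.01. The share of all rows at that unadjusted level is not given for either drug. DESeq2 also called 0 members in both comparisons. In the same comparisons 23 of 24 interferon-stimulated genes rose under IFN and 23 under AZA. Their mean summed level was 844 CPM in vehicle, 3030 CPM under IFN and 2680 CPM under AZA. Changes of that size do not show whether smaller differences of the members would pass the test. Rps2, for example, was at 328, 334, 349 and 351 CPM in VFDM vehicle and at 316, 341, 389 and 362 CPM in VFDM IFN, with a log2 difference of 0.05 (SE 0.18). Rplp2 was at 149, 147, 174 and 152 CPM in VFDM vehicle and at 185, 149, 149 and 151 CPM in VFDM AZA, a log2 difference of 0.03 (SE 0.18; 95% interval -0.34 to 0.39).

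Under COMBO 2 of 80 VFDM members were called, 1 in each direction, where 16% of all tested rows were called, 10.5% lower and 5.52% higher. Rps24 was at 556, 516 and 488 CPM in the 3 COMBO libraries and at 706, 748, 776 and 785 CPM under vehicle. The groups did not overlap, and the log2 fold change was -0.54 ± 0.17 (adjusted p = 0.0288). Rps27l was at 21.9, 21.1 and 19.2 CPM under COMBO and at 11.7, 12.2, 12.2 and 9.51 CPM under vehicle. It lay above vehicle in all 3 libraries, with a log2 fold change of 0.86 ± 0.29 (adjusted p = 0.0413), a 1.82-fold rise. Rps27, its paralogue, was at 11.5, 7.13 and 9.60 CPM under COMBO and 9.97, 9.52, 10.7 and 8.21 CPM under vehicle, with overlapping groups. Both calls were near the threshold: leaving out any 1 library of these groups ended the Rps24 call (adjusted p 0.0607 to 0.147), and leaving out 5 of the 7 in turn ended that of Rps27l (adjusted p 0.0538 to 0.0836, against 0.0484 and 0.0491 without VFDM vehicle library 3 or 2).

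The other members of VFDM COMBO did not pass the test. The median log2 fold change was 0.12 over the 80 members and -0.08 over all rows, and 17 members lay above vehicle in all libraries (13.3% of all rows did) while 5 lay below (23.4%). Rps27a, a fusion of ubiquitin with a small subunit protein, had a log2 fold change of 0.51 ± 0.19 (adjusted p = 0.0595), and Rpl41 one of 0.53 ± 0.25 (adjusted p = 0.146). When the 2 groups were fitted alone, 11 members were called higher and 3 lower, where 25.9% of all rows tested in that fit were called, 10.8% higher and 15.1% lower. Rpl36al, outside the symbol rule, rose by 0.72 (SE 0.23, edgeR adjusted p = 0.0284). Beside the members, 14 of 40 biogenesis factors rose and 0 fell, with the nucleolar helicase Ddx21 at 0.92 ± 0.16 (adjusted p = 1.23e-04). Of 9 tested snoRNA host TOP transcripts 3 rose, Gas5 among them (0.54 ± 0.16, adjusted p = 0.0218), and of 20 elongation and TOP genes 2 rose, Pabpc1 being one (0.49 ± 0.12, adjusted p = 0.00449). Of 14 p53 targets 4 rose and 2 fell, and the one with the smallest p, Sesn1, fell (-0.67 ± 0.15, adjusted p = 0.00195).

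Cell type markers moved with the VFDM COMBO group. The summed level of 13 erythroid markers was 2366 to 21230 CPM against 488 to 515 CPM in VFDM vehicle, and 12 of the 13 rose. The summed level of 11 LT-HSC markers was 718 to 880 CPM against 1845 to 2068 CPM, and 7 of the 11 fell; none of the erythroid, LT-HSC or neutrophil markers was at 0 in all 3 COMBO libraries. Neutrophil markers summed to 676 to 1729 CPM against 34.1 to 98.4 CPM, and 6 of 10 rose. The part of other cell types in the Rps24 and Rps27l values was not tested. Under the single drugs the same genes were not called: in VFDM AZA Rps24 was at 689, 659, 507 and 559 CPM, below all vehicle libraries (-0.32 ± 0.16, adjusted p = 0.519), as were 7 members in all (7.94% of all rows). Rps27l was at 14.8, 19.8, 12.5 and 13.7 CPM there, above all vehicle libraries (0.42 ± 0.28, adjusted p = 0.739), as were 4 members in all (5.11%).

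**Figure D5:**
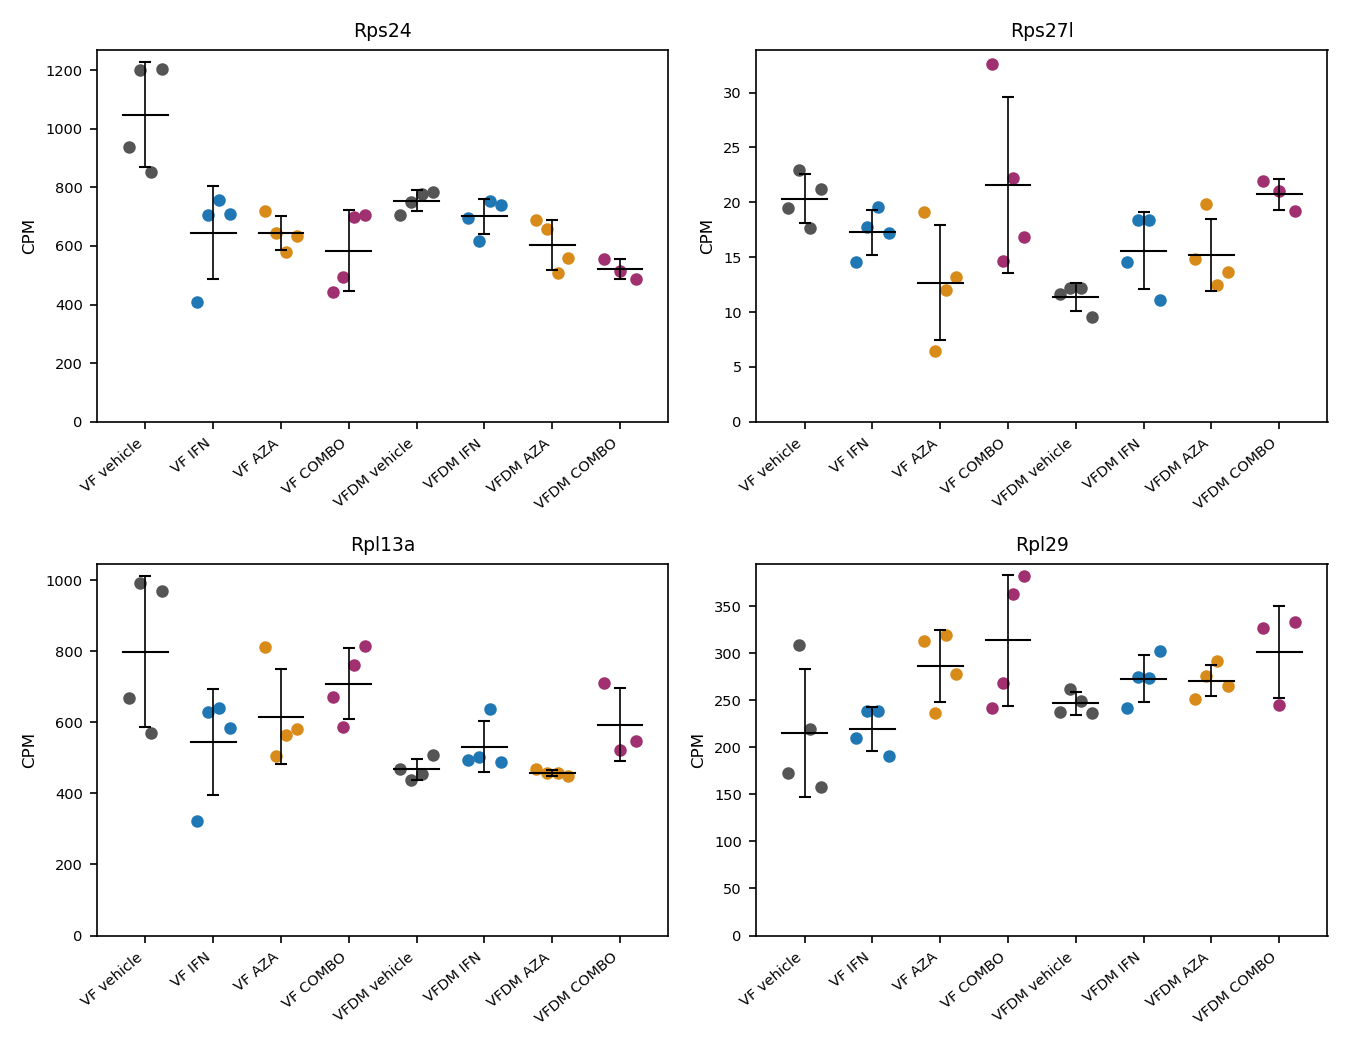
Level (CPM) of Rps24, Rps27l, Rpl13a and Rpl29 in every library by group, with the group mean (horizontal line) and SD (whiskers). Rps24 lies at 488 to 556 in VFDM COMBO and 706 to 785 in VFDM vehicle, Rps27l at 19.2 to 21.9 and 9.51 to 12.2.

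Between genotypes under vehicle, 7 of 80 members were lower in VFDM than in VF and 0 higher, where 0.956% of all rows were called and 0.785% were lower. They were Rps19, Rplp2, Rps2, Rps9, Rpl13a, Rps15 and Rpl19, with log2 fold changes from -0.74 (Rps9) to -1.07 (Rps19). Of these, 6 were also called lower in all 3 treated VF groups, and Rpl13a was called in none of those 3. This comparison uses the same VF vehicle libraries, and 23 members were called lower in at least 1 of the 4 comparisons against them, where 4.88% of all rows were. With VF vehicle library 3 alone 0 were called, without library 4 likewise 0, and without library 3 there were 27. The share of all rows called in these fits is not given, and the fit with 1 VF vehicle library cannot show that the levels were equal. With all libraries, 20 members lay lower in every VFDM vehicle library than in any VF vehicle library (6.87% of all rows did).

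Averaged over the 4 treatments, 1 member was called between genotypes, where 2.37% of all rows were called and 1.57% were lower. Rpl13a, which is known for leaving the ribosome to silence translation in interferon-gamma-treated myeloid cells, was lower in VFDM by 0.37 on the log2 scale (SE 0.09, edgeR adjusted p = 0.0181). It was at 668, 991, 570 and 969 CPM in VF vehicle and 469, 437, 455 and 508 CPM in VFDM vehicle, without overlap. It was at 811, 506, 563 and 582 CPM in VF AZA and 468, 457, 457 and 449 CPM in VFDM AZA, again without overlap. Under IFN the genotypes overlapped, with 323, 628, 641 and 585 CPM in VF and 495, 503, 639 and 489 CPM in VFDM; the VFDM library at 639 is library 3, the one with the highest Dnmt3a of the VFDM libraries. Under COMBO they overlapped too, at 672, 588, 761 and 815 CPM in VF and 712, 522 and 547 CPM in VFDM. Without VF vehicle libraries 1, 2 and 4, which leaves 1 VF vehicle library, the average difference shrank to -0.24. Without VFDM IFN library 3 and VF COMBO library 1 it was -0.40, with an edgeR adjusted p of 0.0148. VF COMBO library 1 was at 193 CPM of Dnmt3a, inside the range of the VF libraries.

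The treatment response differed between genotypes for 0 members under IFN, where 0% of all rows were called. There 28 members had an edgeR unadjusted p under 0.05. The share of all rows at that level is not given, so the 28 cannot be read against all rows. The response differed for 2 members under AZA (0.582% of all rows) and for 7 under COMBO (3.74%). All 9 differences, VFDM response minus VF response, were positive. For Rplp2 the AZA responses were -1.11 in VF and 0.03 in VFDM, a difference of 1.14 ± 0.26 (adjusted p = 0.0223). For Rps19 the COMBO responses were -1.05 in VF and 0.33 in VFDM, and the difference was 1.38 ± 0.29 (adjusted p = 0.00425). All 9 rest on the VF vehicle libraries, and with library 3 alone as VF vehicle 0 were called under any treatment.

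COMBO was also compared with each single drug. In VF cells edgeR called 0 of 80 against IFN (0.00902% of all rows) and 0 against AZA (1.85%), with 5 members each at an unadjusted p under 0.05; DESeq2 called 0 and 3. In VFDM cells it called 0 against IFN (7.88%) and 0 against AZA (7.82%), with 3 and 1 at an unadjusted p under 0.05; DESeq2 called 1 and 0. The fold changes in these comparisons are between treated groups, and their medians were 0.05, 0.14, 0.04 and 0.11. All 8 groups share 1 estimate of spread per gene, so the vehicle libraries still enter the p-values. The share of all rows at an unadjusted p under 0.05 is not given.

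Several members have known roles outside the ribosome. Rpl5 and Rpl11, which with 5S ribosomal RNA hold back MDM2 and so raise p53, were not called in any treatment comparison; Rpl5 ranged from 86.4 to 156 CPM over the 31 libraries and Rpl11 from 22.3 to 90.8. Rps6, the substrate of S6 kinase, ranged from 112 to 239 CPM, with log2 fold changes of -0.39, -0.27 and -0.27 in VF IFN, AZA and COMBO (adjusted p 0.123 to 0.329). Rpl22, which is deleted in some T-cell leukaemias, ranged from 279 to 641 CPM and Rpl26 from 228 to 778. The spread of the 8 group means was under 1 log2 unit for 71 of the 80 tested members. It was smallest for Rpl6 (0.20), Rpl6l (0.21), Rpl17 (0.22) and Rpl27a (0.23), and largest for Rps4l (2.29), Rpl37a (1.33), Rps12 (1.25) and Rps15 (1.25). Rps4l was at 0.316, 0, 0 and 0.606 CPM in VF AZA and 5.11, 18.9, 1.22 and 1.68 CPM in VF vehicle, without overlap; a count of 0 allows up to 0.132 and 0.0956 CPM in the AZA libraries concerned. It was not called there (adjusted p = 0.099), nor in VFDM AZA, where it was at 0, 0.316, 0 and 0.908 CPM against 0.0504, 0.562, 3.82 and 10.1 CPM under vehicle.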

How the data were processed

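RNA-seq of 31 libraries was analysed from 1 table of raw read counts per gene, as deposited by the authors; the submitters' processing notes name STAR 2.7.10a and featureCounts, FastQC 0.11.5, and mm10. The annotation, strand setting and treatment of multiply mapped reads were not given in the sources used here, and the labels give no batch. Symbols, biotypes and transcripts came from GENCODE vM21 (265 of 55492 rows had no symbol there), promoters from RefSeq. Rows were filtered with filterByExpr (22172 kept), scaled by TMM and tested with edgeR 4.0.16 (robust quasi-likelihood, 8 group means) in R 4.3.3, with Benjamini-Hochberg adjustment over all tested rows and a threshold of 0.05; log2 fold changes are edgeR's with a prior count of 0.125. CPM used the TMM-scaled library size. The fit was also run on simulated counts. Apart from changes put into VF IFN, each gene had the same mean relative to library size and the same spread in all libraries. The simulation thus does not test the effect of the uneven VF vehicle libraries. Alternatives were DESeq2 1.42.0, other size factors, no filter, protein-coding rows, a replicate block, the compared groups alone, and left-out libraries; those without VF vehicle libraries 1, 2 and 4, and without VFDM IFN library 3 and VF COMBO library 1, were chosen after seeing the data.

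Named members were up to 4 per direction and comparison with the smallest p among those called with a mean log2 CPM of at least 2, a list of stalk, paralogous and otherwise known members, and the 4 at each end of level per kilobase and of spread between group means; from each of the 18 other lists, up to 3 genes per comparison. Values of 1 tested member and 1 list gene are not reported here by name; both stay in the counts. The members and lists were chosen with earlier results of these data known.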

Additional observations from a re-analysis of the deposited data

Results flagged for a closer look

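Among 84 sets of 4 libraries examined, 6 had 1 library far from the other 3 (Dixon's test at 95%), where chance gives about 1 in 20. VF IFN library 1 was low for 3 members, with Rps9 at 439 CPM (659 to 704 in the others), Rps19 at 117 (169 to 172) and Rps24 at 410 (706 to 758). VF COMBO library 3 had a ratio of Rpl to Rps counts of 1.83 (1.56 to 1.58). Rplp2 was at 185 CPM in VFDM AZA library 1 (149 to 151), and Rpl13a at 639 CPM in VFDM IFN library 3 (489 to 503).

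The response to treatment differed between genotypes by the edgeR interaction test for 9 member and treatment pairs, as VFDM minus VF on the log2 scale. Under AZA the difference was 1.14 for Rplp2 and 1.20 for Rps19. Under COMBO it was 1.30 for Rplp2, 1.38 for Rps19, 0.91 for Rps9, 1.56 for Rpl37a, 0.98 for Rps2, 1.19 for Rps28 and 0.73 for Rpl3. Each uses the VF vehicle libraries, 3 of which are rich in small RNA.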

How the results depend on the processing

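Counts of members called depended on the VF vehicle libraries and on which groups shared the estimate of spread. The share of all rows called also moved with the setting. For VFDM COMBO it was 16% in the main fit and 25.9% with the 2 groups fitted alone. For all other settings, here and above, that share is not given, so their counts cannot be read against all rows. With the compared groups alone, the counts were 0 for VF IFN, VF AZA, VF COMBO, VFDM against VF vehicle and the AZA interaction, 2 for the COMBO interaction, 14 for VFDM COMBO and 3 for VFDM COMBO against IFN. Without VF vehicle libraries 1 and 4 they were 1 (VF IFN), 8 (VF AZA), 7 (VF COMBO), 0 (VFDM against VF vehicle, genotype average and AZA interaction) and 4 (COMBO interaction). Without VF vehicle libraries 1, 2 and 4 they were 0 in each of these 7. Without the 8 libraries under 20000 detected rows they were 0 for VF AZA, VF COMBO, the genotype average and both interactions, 8 for VFDM COMBO, 20 for VFDM against VF vehicle, 4 for VFDM COMBO against IFN and 1 against AZA. That setting keeps 1 VF COMBO and 2 VF AZA libraries, the lone one being assumed to vary like the other groups, so its 0 says nothing about stability. DESeq2 gave 4 for VFDM COMBO, 16 for VFDM against VF vehicle, 3 for VF COMBO against AZA, 1 for VFDM COMBO against IFN, and 1, 7 and 14 for the IFN, AZA and COMBO interactions. Protein-coding rows alone gave 5 for VFDM COMBO, 1 for VF COMBO against AZA, 1 for VFDM COMBO against IFN and 13 for the COMBO interaction. No filter gave 1 for VFDM COMBO and 1 for VFDM COMBO against AZA, and leaving out VFDM IFN library 3 and VF COMBO library 1 gave 3 for the COMBO interaction.

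Leaving out 1 library at a time gave 4 to 23 for VF IFN, 5 to 31 for VF AZA, 11 to 24 for VF COMBO, 0 to 1 for VFDM COMBO, 0 to 27 for VFDM against VF vehicle, 0 to 1 for the genotype average and for VF COMBO against AZA, and 0 to 4, 0 to 10 and 2 to 17 for the IFN, AZA and COMBO interactions. Single values changed sign without VF vehicle libraries 1, 2 and 4: Rplp2 in VF IFN (0.0301), Rps2 in VF AZA (0.0567) and VF COMBO (0.0771), Rplp1 in VF COMBO (0.0322) and Rps9 in VFDM against VF vehicle (0.0182). The cause was not tested.

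Libraries with the same number did not deviate together (mean r 0.0027 over 105 pairs, 6 of them over 0.1). Of 31 libraries, 7 were closest to their own number. These values show no pairing by number, but a small shared effect could be missed. With a replicate block the counts were 11 (VF IFN), 16 (VF AZA), 20 (VF COMBO), 2 (VFDM COMBO), 6 (VFDM against VF vehicle), 1 (genotype average), 2 and 5 (AZA and COMBO interactions) and 0 elsewhere. Depth limits members near 0, such as Rps4l and Rpl10l.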
